A study of Mus musculus with 5 samples.

Results

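Control mouse cells at day 10 of differentiation towards heart muscle were compared with control cells of the same line at day 4, when the cultures are labelled as mesoderm. Each side was 1 microarray. The differences therefore compare these 2 arrays, no test was possible, and the spread between cultures was not measured. All probes entered, and a gene was kept where the brighter of its 2 arrays lay at or above that array's median, a log2 normalized intensity of 9.16. By this rule 11436 of 17742 named genes were kept. The genes nearest the limit were Flt4 at 9.16, which was kept with a difference of 0.06, and Iba57, also at 9.16 to 2 decimals, which was not kept and differed by -1.20.

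The cells came from the mouse ESC (embryonic stem cell) line 46C, which carries a fluorescent reporter at the neural gene Sox1. The control day 4 cells, labelled control by genotype, had been grown without serum in N2 and B27 supplements with 5 ng/ml each of VEGF and Activin A and 0.2 ng/ml Bmp4. The control day 10 cells had been grown in StemCell Pro-34 medium with 25 ng/ml FGF10, 10 ng/ml bFGF and 5 ng/ml VEGF. Medium and growth factors therefore changed together with time, and their parts cannot be told apart. Of the 3 other arrays, 1 was from undifferentiated ESCs at day 0, grown on feeder cells with 15% serum and LIF at 1000 U/ml. A second pair came from cells with a knockdown of the long non-coding RNA Linc1405 at day 4 and day 10, in the same media, and shares no array with the control pair. The sources used here do not say whether the control cells are 1 clone or how many dishes were pooled for an array.

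As background, mesoderm forms in the primitive streak under Wnt, Nodal, BMP and FGF signals, and the T-box genes T and Eomes and the factor Mesp1 mark its passage. Part of the Mesp1 lineage becomes heart muscle, which then builds sarcomeres: thin filaments of actin, tropomyosin and troponin, thick filaments of myosin, and Z-discs that anchor the actin ends and titin. Contraction is switched by calcium that enters through surface channels and is released from and pumped back into the sarcoplasmic reticulum. Differentiated ESC cultures are mixtures, and fibroblast-like, endothelial, epicardial, blood and endodermal cells commonly accompany the muscle.

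Among the kept genes, 2182 (19.1%) were at least 2-fold higher at day 10 and 2214 (19.4%) at least 2-fold lower, while 7040 differed by less than 2-fold. These shares are the background against which each list below is to be read. Most list counts below are out of all measured genes, including any under the intensity limit, so a list's share of its kept genes is equal or larger. Of the higher genes 83 lay at the intensity floor (log2 6.64) at day 4, and of the lower genes 17 lay at the floor at day 10. Differences for those genes are lower bounds and are written as "at least". The near-equal split at 2-fold depended on the normalization: after loess centring the counts were 2563 higher and 1596 lower, and in the values as deposited 1165 and 5232. At larger folds the control pair was one-sided, with 967 genes at least 4-fold higher against 462 lower, 189 against 36 at 16-fold, and 15 against 1 at 128-fold. After loess centring the 16-fold counts were 239 and 29, and as deposited, where the median of all genes lay at -0.72, they were 102 and 80. The SD of a single probe's difference, taken from 1148 genes with a second probe, was 0.743 on the log2 scale, and of 424 such genes past 2-fold on the first probe 380 had the same sign on the second. This SD reflects disagreement between different probes of a gene, whatever its source, and not the spread between cultures.

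**Figure D1:**
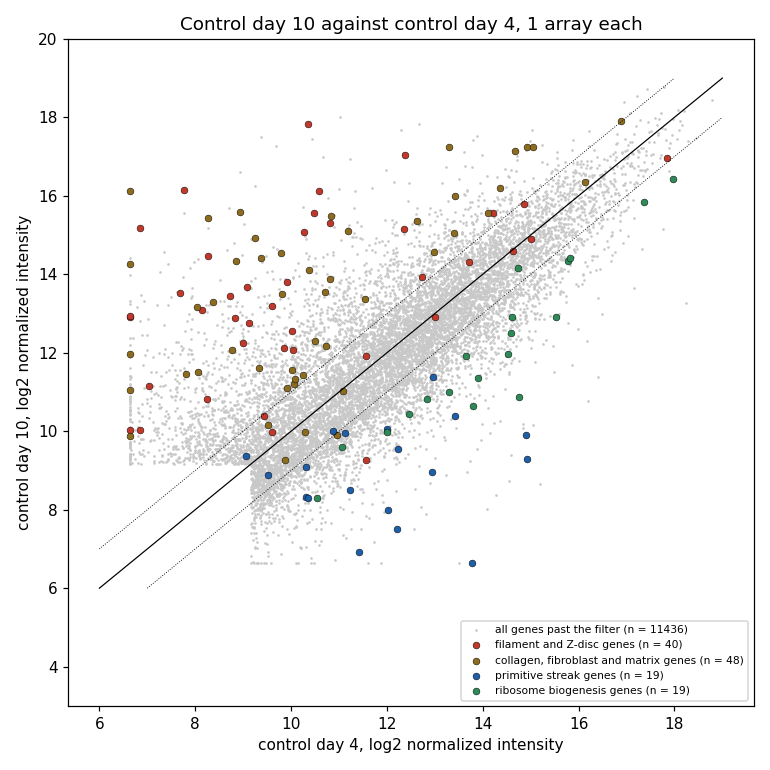
Log2 normalized intensity of the 11436 kept genes on the control day 4 array (horizontal) and the control day 10 array (vertical), 1 array each, with the line of equality and 2-fold lines (dotted). Filament and Z-disc genes and collagen, fibroblast and matrix genes lie mostly above the upper dotted line, primitive streak and ribosome biogenesis genes mostly below the lower one, and the column of points at the left edge holds genes at the floor at day 4.

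The widest differences already outlined the change. With both arrays above the floor, the highest was Csrp3 (muscle LIM protein of the Z-disc), at a log2 intensity of 7.77 on the day 4 array and 16.16 on the day 10 array, a 335-fold difference. Ankrd1, a stretch-responsive partner of titin, followed at 6.84 and 15.19. Of the remaining 18 of the 20 highest, Sh3bgr (7.80), Pgam2 (7.67), Actc1 (7.47), Popdc2 (6.91) are known from striated muscle, Col1a2 (7.17), Tgfbi (7.02), Dcn (6.65), Ccn4 (6.61) and Smoc2 (6.33) encode matrix or matricellular proteins, and Igfbp7 (7.58) is a secreted binding protein. The others were Plagl1 (8.14), Emp1 (7.02), Afp (6.99), Acta2 (6.99), Anxa1 (6.83), Upk1b (6.82), C1qb (6.38) and Depp1 (6.37). Among genes at the floor at day 4, the collagen-binding proteoglycan Lum was at least 9.49 higher, Top2b at least 7.77, Col3a1 at least 7.62, Art3 at least 7.32, Pf4 at least 6.67 and Ccl3 at least 6.60.

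At the other end stood the FGF ligand Fgf3, at 15.19 on the day 4 array and 8.66 on the day 10 array, a difference of -6.53. Lgr5, a receptor for R-spondins that amplifies Wnt signals, differed by -6.06. The lipoxygenase gene Alox15 (-5.90), Fosb (-5.81), T (-5.64), the carbonic anhydrase gene Car2 (-5.42), Fgf15 (-5.19), Six2 (-5.04), Fos (-5.02) and Evx1 (-5.01) completed the 10 lowest, and among the next 10 were Phlda2 (-4.97), Cfc1 (-4.88), Etv2 (-4.75), Trh (-4.72), Mixl1 (-4.71), the RNA helicase gene Ddx21 (-4.67), Egr2 (-4.56) and Fgf4 (-4.51). At the floor at day 10 were Mesp1, at least 7.13 lower, Vrtn, at least 6.85, Cdh4, at least 5.23, and Hoxd1, at least 4.96 lower.

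The labelled cell types were set against marker genes. Of 10 heart muscle markers 7 were measured, and all 7 were at least 2-fold higher at day 10, their summed normalized intensity going from 10621 on the day 4 array to 486695 on the day 10 array. Of 8 markers of day 4 mesoderm, 7 were lower at day 10 and the sum went from 105098 to 37034. Most of that day 10 sum was Pdgfra (log2 14.56) and Kdr (13.26), which are also counted below as fibroblast and endothelium markers. The next brightest mesoderm marker on the day 10 array was Eomes, at 10.05. Myh6, Myh7, Myl2, Myl7, Nkx2-5 and Ryr2 were unnamed on these probes and are not analysed here. Markers of other cell types moved on the same pair of arrays. Fibroblast markers were higher in 6 of 7 measured (sum from 9902 to 240933), smooth muscle in 2 of 3 (2270 to 264171), epicardium in 4 of 6 (1602 to 34860), endothelium in 5 of 6 (28356 to 58576), macrophage in 4 of 6 (2413 to 20814) and liver-type endoderm in 5 of 6 (6892 to 111097). Nearly all of the smooth muscle sum at day 10 was Acta2 (log2 18.01, against 9.36 for Tagln and 6.91 for Cnn1). Acta2 is also expressed by early cardiac muscle and myofibroblasts. Blood markers were lower in 3 of 4 (25726 to 4512), and of 4 neural markers 0 differed 2-fold (2079 to 2375). At day 10 none of the measured markers of these 8 types lay at the floor, but only 19% of all probes on that array did. At or above the array median were 6 of 7 fibroblast, 2 of 3 smooth muscle, 4 of 6 epicardial and 6 of 6 endothelial markers. The same held for 5 of 6 macrophage, 6 of 6 liver-type, 1 of 4 blood and 2 of 4 neural markers. The 4 markers of skeletal muscle were all unnamed. Markers of several lineages beside muscle were thus above the median at day 10, and the part of each in any muscle difference below was not tested. On bulk arrays fewer cells of a type and less RNA per cell cannot be told apart.

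Thin filament genes were higher at day 10. Of 19 measured, 10 were kept and at least 2-fold higher, 1 was lower, 3 lay between and 5 were under the intensity limit, and the median over all 19 was 2.25 against 0.00 over all named genes. Actc1, cardiac alpha actin, stood at 10.35 on the day 4 array and 17.82 on the day 10 array, a 178-fold difference. The thin filament capping protein gene Tmod1 went from 8.26 to 14.46, and the troponin I genes Tnni3 (cardiac) and Tnni1 (slow skeletal and embryonic) from 10.58 to 16.13 and from 12.38 to 17.04. Skeletal alpha actin, Acta1, was at 8.15 and 13.09. Cardiac troponin T, Tnnt2, was at 8.82 and 12.89, troponin C, Tnnc1, at 12.35 and 15.15, and the slow troponin T gene Tnnt1 at 9.12 and 12.77. The filament nucleator gene Lmod3 was at least 3.40 higher.

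Not every thin filament gene shared this direction. The fast skeletal troponin T gene Tnnt3 was at 11.57 at day 4 and 9.27 at day 10, a difference of -2.30, while its fast troponin I counterpart Tnni2 was 2.25 higher. Among tropomyosins, Tpm3 differed by -0.87 and Tpm2 by 0.94. Tpm1 differed by 0.91 on its brightest probe and by 4.27 and 1.59 on 2 other probes, so its size depended on the probe. Neb (-0.18) and Nebl (-0.30) were under the intensity limit.

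Z-disc and stretch response genes had the highest median of the 3 contractile lists, 3.16, with 17 of 25 measured members kept and at least 2-fold higher and 0 lower. Beside Csrp3 and Ankrd1, the costamere gene Smpx was at least 6.29 higher and the small heat shock gene Hspb3 at least 6.26. Ldb3, which binds actinin at the Z-disc, went from 7.68 to 13.52. Its 3 other probes differed by 1.87 to 2.79, the same direction at a smaller size. Ttn, the titin gene, was at 10.47 and 15.56, the actin-binding nexilin gene Nexn at 10.26 and 15.08, the sarcomeric actinin gene Actn2 at 10.82 and 15.30, telethonin, Tcap, at 7.04 and 11.16, and desmin, Des, at 9.91 and 13.81. Flnc (0.61), Bag3 (-0.12), Fhl1 (-0.03) and Pdlim3 (-0.09) differed by less than the between-probe SD, with day 4 intensities already between 13.01 and 15.00. Of 5 measured genes of thick filament assembly and the M-band, the ubiquitin ligase gene Trim63 (4.60), Obsl1 (3.60) and the myosin chaperone gene Unc45b (2.57) were higher.

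Promoter sequences of these genes were read from RefSeq models (GRCm38.p6) to set the expression beside known muscle control elements. Serum response factor binds the CArG box, MEF2 factors bind an A/T-rich box, and TEAD factors bind the MCAT element GGAATG. Each was searched on both strands of the 250 bases before a gene's start, and the first 2 were searched by their usual consensus. The CArG consensus was present in 8 of 54 promoters (14.8%) of the measured filament and Z-disc genes and in 1.47% of all 32851 promoters. The MEF2 consensus was in 4 of 54 (7.41%) against 2.92% of all, and the MCAT letters in 12 of 54 (22.2%) against 12.6%. Some genes have several promoters: by gene, the CArG share was 6 of 40 (15%) for the filament and Z-disc genes and 1.62% for all genes. Over all kept genes at least 2-fold higher at day 10 the CArG share was 1.38%, at the level of all promoters, and 1.06% over those lower. At 16-fold it was 2.53% for higher genes and 5 of 33 promoters (15.2%) for lower genes, from 2 of 24 genes. For immediate early genes, mostly lower at day 10, it was 5 of 19 promoters (26.3%), from 2 of 15 genes. The MEF2 share was 1.91% over kept genes at least 2-fold higher and 1.48% over those lower. Among immediate early genes it was 3 of 19 promoters (15.8%), from 3 of 15 genes. For the MCAT letters the shares over these 3 sets were 12.4%, 9.04% and 10.5%. The 250 bases before the start are printed below for 4 genes with a CArG match and 2 with a MEF2 match, chosen after the matches were seen. Capitals mark the CArG letters in Actc1, Acta1, Ldb3 and Egr2, the MEF2 letters in Ttn and Pgam2, and also the TATA letters TATAAA in Acta1. They lie at chr2:114052876-114053125 (Actc1), chr8:123894776-123895025 (Acta1), chr14:34588682-34588931 (Ldb3), chr2:76982548-76982797 (Ttn) and chr11:5803797-5804046 (Pgam2), all on the minus strand, and at chr10:67537316-67537565 (Egr2) on the plus strand.
Actc1: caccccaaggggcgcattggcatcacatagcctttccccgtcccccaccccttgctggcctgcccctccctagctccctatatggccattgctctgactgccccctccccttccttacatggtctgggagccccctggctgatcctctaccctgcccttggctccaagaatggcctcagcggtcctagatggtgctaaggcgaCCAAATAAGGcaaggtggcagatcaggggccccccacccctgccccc
Acta1: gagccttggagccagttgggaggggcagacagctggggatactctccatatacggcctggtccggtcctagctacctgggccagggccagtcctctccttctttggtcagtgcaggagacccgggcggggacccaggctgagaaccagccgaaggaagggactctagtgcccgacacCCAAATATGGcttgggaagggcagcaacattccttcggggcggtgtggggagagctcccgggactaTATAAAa
Ldb3: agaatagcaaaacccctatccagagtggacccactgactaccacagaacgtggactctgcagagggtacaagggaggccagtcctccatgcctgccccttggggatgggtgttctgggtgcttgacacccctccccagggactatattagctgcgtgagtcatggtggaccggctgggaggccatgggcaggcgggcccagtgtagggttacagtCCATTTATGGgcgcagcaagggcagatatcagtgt
Ttn: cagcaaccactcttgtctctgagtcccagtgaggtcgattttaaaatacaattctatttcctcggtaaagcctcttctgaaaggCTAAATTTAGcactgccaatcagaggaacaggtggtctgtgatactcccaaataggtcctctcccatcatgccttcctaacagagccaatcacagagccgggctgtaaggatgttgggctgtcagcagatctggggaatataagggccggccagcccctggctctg
Pgam2: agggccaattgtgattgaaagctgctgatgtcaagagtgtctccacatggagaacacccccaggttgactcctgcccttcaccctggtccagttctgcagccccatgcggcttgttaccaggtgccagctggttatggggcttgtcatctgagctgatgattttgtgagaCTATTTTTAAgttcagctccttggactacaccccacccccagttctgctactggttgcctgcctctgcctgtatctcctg
Egr2: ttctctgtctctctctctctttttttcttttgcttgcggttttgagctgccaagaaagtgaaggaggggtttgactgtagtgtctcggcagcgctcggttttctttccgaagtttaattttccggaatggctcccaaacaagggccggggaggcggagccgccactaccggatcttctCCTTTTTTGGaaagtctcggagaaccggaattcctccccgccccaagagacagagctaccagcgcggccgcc
The CArG match began 47 bases before the start in Actc1, 73 in Acta1, 35 in Ldb3 and 72 in Egr2. In Acta1 an MCAT match stood between the CArG and TATA letters, 46 bases before the start. The MEF2 match began 166 bases before the start in Ttn and 80 in Pgam2. The match did not separate genes by their difference: Actc1, Ldb3 and Acta1 were higher by 7.47, 5.84 and 4.94 and Fhl2 by 2.02, but Fhl1, also with a CArG match, differed by -0.03, and Egr2, an early growth response gene, by -4.56. A match describes letters in a window and not binding.

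**Figure D2:**
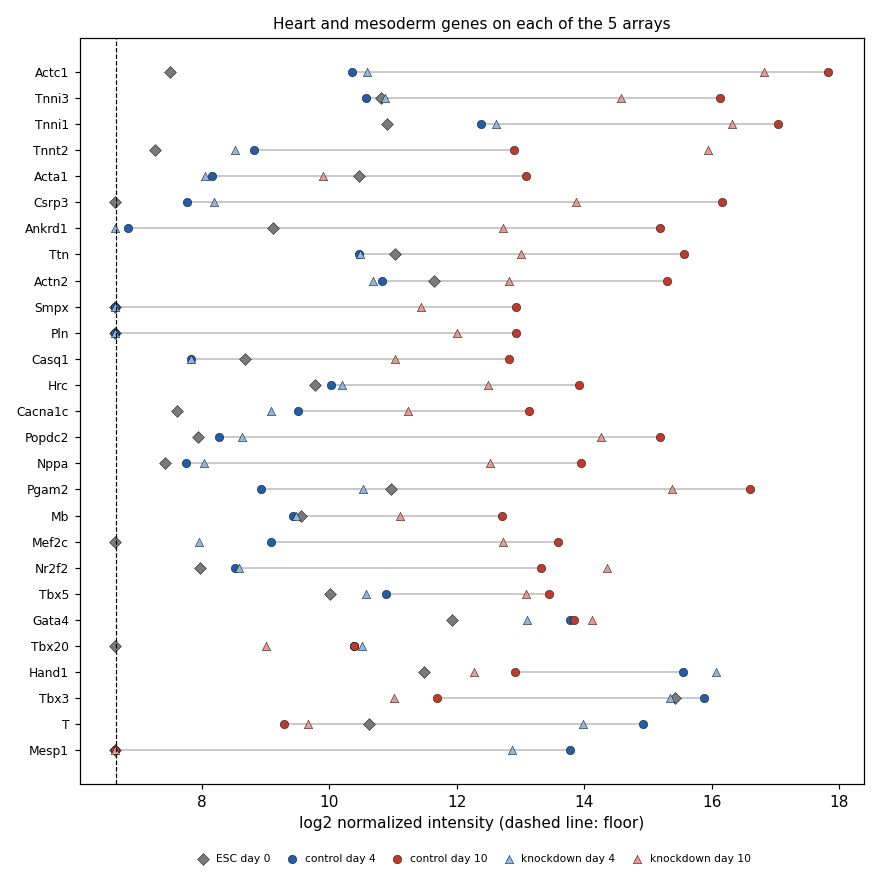
Log2 normalized intensity of 27 heart and mesoderm genes on each of the 5 arrays (diamond for ESC day 0, circles for control and triangles for knockdown, blue for day 4 and red for day 10; the grey bar joins the control pair and the dashed line is the floor). Red circles lie to the right of blue circles for the contractile, calcium and secreted genes from Actc1 down to Tbx5, Gata4 and Tbx20 have coinciding circles, and Hand1, Tbx3, T and Mesp1 run the other way.

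Genes of calcium handling were higher as a group, with 13 of 23 measured members kept and at least 2-fold higher, 0 lower and a median of 1.77. Pln encodes phospholamban, the brake on the reticulum calcium pump, and went from the floor to 12.93, at least 6.28 higher. The reticulum calcium buffer genes Casq1 and Hrc went from 7.82 to 12.82 and from 10.03 to 13.91, and Casq2, the cardiac calsequestrin gene, from 9.66 to 11.01. Cacna1c, the pore of the cardiac L-type channel, was at 9.50 and 13.13, and its beta subunit gene Cacnb2 at 7.60 and 9.91. The pump gene Atp2a2 was at 12.88 and 14.98, a difference of 2.10, but its other probes differed by 3.40 and -0.56, so that its direction is unsettled. The exchanger gene Slc8a1 (-0.27) and Asph (0.10) did not reach 2-fold. The triadin gene Trdn differed by -0.76 on its brightest probe and by 5.04 and at least 1.66 on others, so its direction is unsettled too.

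Among 28 measured ion channel and conduction genes, 11 were higher, 3 lower and the median was 1.04. Popdc2, a cAMP-binding membrane protein gene of the conduction system, was at 8.27 and 15.18, with 5.70 and at least 4.74 on its other probes, and its relative Bves at 10.88 and 14.48. The sinus node regulator Shox2 was at least 4.24 higher. The T-type channel gene Cacna1h was at 10.88 and 14.58, and the inward rectifier genes Kcnj2 and Kcnj11 were 3.51 and 3.02 higher, though a second Kcnj11 probe lay at the floor on both arrays. In the other direction the gap junction gene Gja1 (connexin 43) was at 16.98 and 15.64, a difference of -1.35, and Kcne4 (-1.21) and Kcnip2 (-1.04) were also lower. The pacemaker channel gene Hcn4 lay at the floor on both arrays.

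Cardiac hormones and secreted factors were higher in 8 of 11 measured genes and lower in 0, with a median of 2.29. Nppa, the atrial natriuretic peptide gene, went from 7.75 to 13.94, and Corin, the protease that cleaves its precursor, was at least 5.55 higher. The vasoactive peptide genes Adm and Edn1 were 4.50 and 3.14 higher, and Nppb, the B-type peptide gene, 1.34. Of 13 measured genes used as atrial markers 7 were higher and 0 lower, and of 9 ventricular markers 3 were higher and 2 lower. Atrial Nr2f2 and Nr2f1 were 4.80 and 3.41 higher, ventricular Irx4 0.88, and Pln, listed as ventricular, at least 6.28. The regulator genes on these lists are also expressed outside muscle, and the myosin light and heavy chain genes that best separate the chambers were among those unnamed here.

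Cardiac transcription factors divided, with 13 of 34 measured genes higher, 4 lower, 14 kept and under 2-fold, and a median of 0.69. Mef2c, a MADS-box factor of muscle, was at 9.09 at day 4 and 13.59 at day 10, and differed by 2.57 on its other probe. Gata5 (3.44), Tbx18 (3.12), a factor of sinus horn and epicardium, Tbx5 (2.56), Gata6 (2.04) and Hand2 (2.03) were also higher. Hopx, a homeodomain-only cofactor, differed by 3.26 on its brightest probe and 0.88 on another. Gata4 was level, at 13.78 and 13.84, as was Tbx20, at 10.38 and 10.39, and Isl1, a factor of second heart field progenitors, differed by -0.50. After normalization Gata4 and Tbx20 thus had near-equal intensities on the 2 arrays. In the values as deposited, where the median of all genes lay at -0.72, they differed by -0.74 and -0.75. Tbx3 (15.87 and 11.69), Hand1 (15.54 and 12.91), the Nodal cofactor gene Foxh1 (13.51 and 11.11) and Prox1 (11.61 and 10.41) were lower.

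Muscle energy genes were higher in 12 of 26 measured and lower in 2, with a median of 0.95. Pgam2, the muscle phosphoglycerate mutase, was at 8.93 and 16.60, a 203-fold difference. The mitochondrial biogenesis coactivator gene Ppargc1a was at least 4.16 higher, the orphan receptor gene Esrrg 4.02, myoglobin, Mb, 3.29 (at least 1.18 on its other probe), and the oxidase subunit gene Cox7a1 3.05. Fatty acid dehydrogenase genes showed smaller differences, at 1.47 for Acadm, 1.23 for Acadvl and 1.20 for Acadl, and Hadha (-1.60) was lower. In contrast to these isoform and regulator genes, the general respiratory chain list was level: its median was 0.18 and 27 of 30 measured subunit genes were kept and under 2-fold, with Ndufb5 (1.13) the exception. Glycolysis and hypoxia genes were mixed, with 7 of 20 higher and 2 lower. Hk1 (2.82), Vegfa (2.80) and Aldoc (2.36) were higher, and Tpi1 was lower at -2.62.

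Pairs of genes that encode alternative forms of the same protein were compared by their differences. Of 20 pairs 12 had both forms measured, and in 10 of the 12 the striated-muscle or later form had the larger difference, by 2-fold or more in 8. Among the 8 were Actc1 over Acta1, skeletal alpha actin and so also a striated-muscle form, and Atp2a2 over Atp2a3. Another Atp2a2 probe differed by -0.56, so the size of that last pair is unsettled. Pgam1, the general mutase, differed by 0.28 where Pgam2 differed by 7.67. Non-muscle Actn1 differed by 0.41 and Actn2 by 4.48. For cytochrome oxidase the general subunit genes Cox8a, Cox7a2 and Cox6a1 differed by 0.50, 0.28 and -0.32, and the heart and muscle subunit genes Cox8b, Cox7a1 and Cox6a2 by at least 4.41, by 3.05 and by 1.23. A second Cox6a2 probe was at least 6.92 higher. Among histone methyltransferases Ezh2 differed by -1.18 and Ezh1 by 0.92. The creatine kinase pair ran the other way: brain-type Ckb was 1.73 higher and muscle-type Ckm, under the intensity limit, was at least 0.41 higher.

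**Figure D3:**
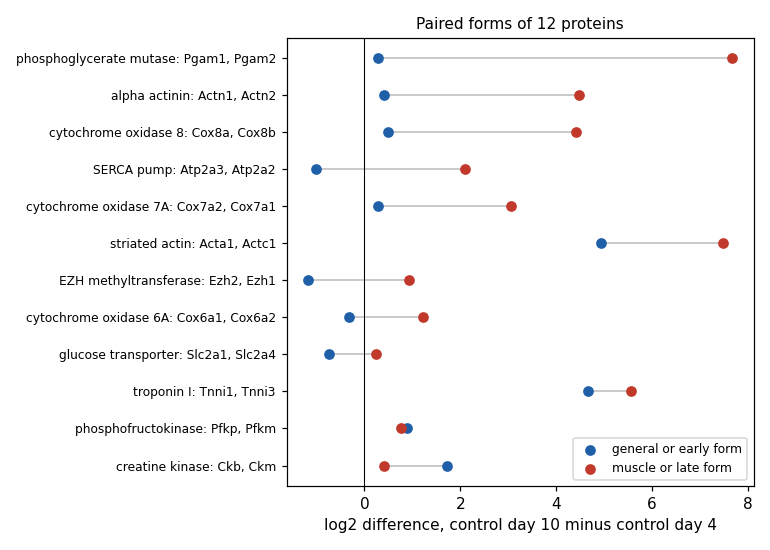
Log2 difference, control day 10 minus control day 4, for 12 pairs of genes that encode general or early forms (blue) and muscle or late forms (red) of a protein; the grey bar joins a pair. Red lies to the right in 10 pairs, farthest for phosphoglycerate mutase, and to the left for phosphofructokinase and creatine kinase; Cox8b and Ckm were at the floor at day 4 and are lower bounds.

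Genes of the primitive streak and mesendoderm were lower, in 16 of 22 measured with 0 higher and a median of -2.03. T went from 14.92 to 9.28, a 49.7-fold difference, Mixl1 from 12.21 to 7.50, and Evx1 from 14.91 to 9.91. Eomes, the T-box factor that the study's title names, was at 12.01 and 10.05. Genes of early cardiac and lateral mesoderm had a median of -1.16 and went 13 lower and 4 higher of 22: Etv2, the switch to blood and endothelium, was at 14.83 and 10.08, Foxf1 at 13.73 and 9.24, and Msx2 and Msx1 were -3.67 and -3.30, while Snai2 (2.74), Osr1 (1.89), Pdgfra (1.58) and Wnt2 (1.05) were higher.

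Pluripotency genes were lower in 11 of 23 measured, 1 was higher and 7 lay under the intensity limit, with a median of -1.79. Lin28a, which blocks let-7 maturation, was at 14.23 and 10.22, Sall4 at 16.18 and 12.29, and Sox2 at 11.35 and 8.88. Other genes of the Lin28 and let-7 axis were lower too, among them Trim71 (-2.65), Lin28b (-2.56) and Arid3b (-1.82). Hmga2, a known let-7 target, was level at 16.50 and 16.46, as was Igf2bp3 (-0.01). Pou5f1 differed by 0.60. Of 35 Hox genes 5 were higher, 4 lower and the median was 0.00. Hoxd1, Hoxb1, Hoxd9 and Hoxd13 were the lower ones, and Hoxb4 (2.10), Hoxb7 (1.63) and Hoxd4 (1.62) stood at the upper end.

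Wnt pathway genes were grouped by role. Of 18 ligands, 4 were lower, Wnt5b (-2.84), Wnt3 (-2.73), Wnt6 (-2.05) and Wnt2b (-1.72), and Wnt9a (1.14) and Wnt2 (1.05) higher. Of 19 receptors and agonists, Lgr5 (-6.06), the agonist gene Rspo3 (-2.99), Fzd10 (-2.46) and Fzd6 (-1.23) were lower and Fzd1 (2.34), Fzd8 (1.62), Fzd7 (1.08) and Fzd2 (1.01) higher. Of 20 targets, effectors and inhibitors 16 were kept, of which 6 were lower and 3 higher, against 19.4% and 19.1% of all kept genes. The median over all 20 was -0.15. Among the lower were targets and transcriptional effectors: Sp5 was at 12.03 and 7.99, Axin2 at 12.68 and 10.21, Tcf7 at 13.65 and 10.89, and Lef1 at 10.96 and 8.72, while the target gene Ccnd1 differed by -0.02. The secreted antagonist genes Sfrp1 (11.68 and 16.19) and Sfrp5 (8.24 and 10.83) and the Dickkopf family gene Dkk3 (10.31 and 14.89) were higher, whereas Sfrp2 (-1.19) was lower and Ctnnb1, beta-catenin, differed by 0.30.

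FGF ligands were lower in 6 of 18 measured, and 11 lay under the intensity limit. Beside Fgf3 and Fgf15, Fgf4 went from 11.42 to 6.91, Fgf5 from 10.32 to 7.06, Fgf8 from 12.24 to 9.56 (-1.89 and -0.49 on dimmer probes) and Fgf10 from 13.83 to 12.35. Of their receptors Fgfr2 (-2.06) was lower and Fgfr3 (1.38) higher, and the feedback targets Etv5 (-1.41) and Etv4 (-1.10) were lower while Dusp6 differed by 0.95. Day 10 medium contained bFGF and FGF10 and day 4 medium did not. In the Nodal pathway the coreceptor genes Cfc1 (15.04 and 10.16) and Tdgf1 (13.43 and 10.38) and the activin antagonist gene Fst (11.14 and 7.28) were lower. BMP pathway genes had a median of -0.05, with the targets Msx1, Msx2 and Id1 (-1.34) lower and Id2 (1.17) higher.

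TGF-beta pathway and matrix response genes were higher in 9 of 14 and lower in 0, with a median of 1.68. Tgfbi, a secreted protein induced by TGF-beta, was at 10.44 and 17.46. The receptor genes Tgfbr3 and Tgfbr2 were 3.78 and 3.48 higher, thrombospondin, Thbs1, 4.37, and the ligand genes Tgfb3 and Tgfb2 2.04 and 1.73, while Tgfb1 was level (0.10). Insulin-like growth factor genes were higher in 9 of 12, with a median of 2.34. Igfbp7 was at 9.68 and 17.26, but was at least 1.57 higher on its other, dimmer probe. Igfbp1 was at least 6.32 higher, the clearance receptor gene Igf2r was at 13.79 and 17.42, Igf1r was 2.60 higher, and Igf2, at 17.78 and 18.78, was just under 2-fold. Among 21 imprinted genes 9 were higher. Plagl1, a zinc finger regulator of the imprinted network, was at 9.37 and 17.51, the Notch-related ligand gene Dlk1 at 11.23 and 16.95 (2.35 on its other probe), and the non-coding RNA gene H19 was 2.57 higher. Phlda2, a growth-restraining imprinted gene of the placenta, went the other way, from 18.24 to 13.27.

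Of 12 measured Notch pathway genes 5 were higher and 3 lower, with a median of 0.09, and of 13 retinoid pathway genes 4 were higher and 4 lower, with a median of 0.07. The Notch ligand genes Jag1, Jag2 and Dll4 were higher by 2.40, 2.14 and 1.70, and Dll1 (-1.52) and Dll3 (at least 2.80 lower) were lower together with the target Hes1 (-1.94 on 1 probe, -0.14 on the other). In the retinoid pathway Rbp4 (5.18, with 6.03 and 1.34 on its other probes), Aldh1a1 (4.17), Dhrs3 (4.06) and Rarb (at least 4.53) were higher. The retinaldehyde dehydrogenase gene Aldh1a2 (-1.41) and the binding protein genes Crabp1 (-2.55) and Crabp2 (-1.77) were lower.

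**Figure D4:**
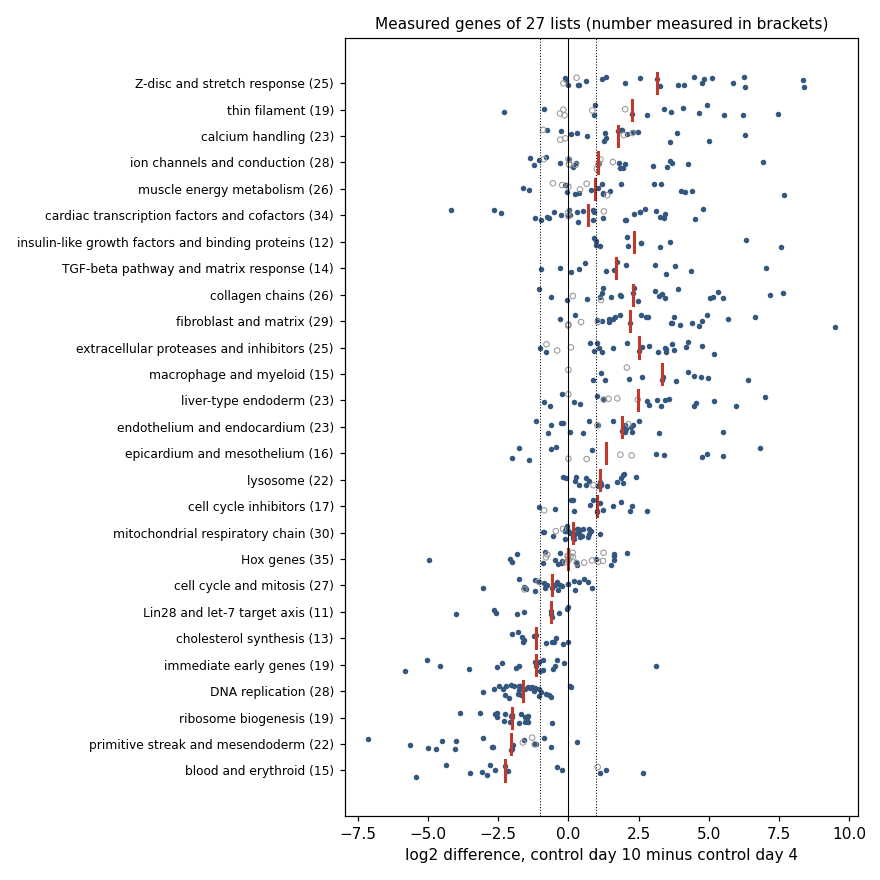
Log2 difference, control day 10 minus control day 4, of every measured gene of 27 lists (filled points are genes past the intensity limit, open points genes under it, red bars list medians, dotted lines 2-fold in each direction). Medians run from 3.33 for macrophage and myeloid genes and 3.16 for Z-disc genes to -2.25 for blood genes, and the respiratory chain and Hox lists are centred near 0.

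The matrix and other cell types made a second large group of higher genes. Of 26 collagen chains 20 were higher and 1, Col5a3 (-1.06), lower, with a median of 2.30. Col1a2 was at 8.27 and 15.44, Col3a1 was at least 7.62 higher, Col6a3 was at 8.85 and 14.34, and the basement membrane chains Col4a1 and Col4a2 were 1.86 and 2.32 higher. Of 29 fibroblast and matrix genes 22 were higher and 0 lower, among them Lum, Dcn, the matricellular gene Postn (9.25 and 14.93), Tcf21, a factor of cardiac fibroblasts and epicardium (8.38 and 13.30), tenascin, Tnc (4.74), and the crosslinking enzyme gene Loxl2 (3.97). Fibronectin, Fn1, was level at 16.14 and 16.36. Extracellular proteases and inhibitors were higher in 18 of 25, led by the procollagen processing enhancer gene Pcolce (5.17), Mmp23 (4.75) and Timp3 (4.24). The smooth muscle actin gene Acta2, which early cardiac muscle and myofibroblasts also express, was at 11.02 and 18.01, and Tagln was at least 2.72 higher, while Cnn1 (at least 0.27 higher) was under the limit.

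Epicardial and mesothelial genes divided, with 6 of 16 higher and 3 lower. Upk1b (7.26 and 14.07), Upk3b (7.93 and 13.44) and Wt1 (6.91 and 11.68) were higher, and Lrrn4 (12.98 and 10.98), Podxl (-1.75) and Aldh1a2 were lower. Endothelial genes were higher in 13 of 23, including Emcn, an endocardial sialomucin gene (8.97 and 14.48), Vwf (3.22), Cldn5 (2.52) and Cdh5 (2.26), while Kdr, the VEGF receptor also found on early mesoderm, was lower at -1.15. Blood genes were lower in 9 of 15: Gata2 (13.24 and 8.88), Gfi1b (-3.49), Runx1 (-3.07) and Gata1 (-2.88), with the red cell genes Slc4a1 (at least 2.65) and Alas2 (1.34) higher. Macrophage genes were higher in 12 of 15, among them C1qb (6.78 and 13.16), Csf1r (at least 4.98), Cx3cr1 (4.73) and Mrc1 (3.84), and the pan-leukocyte gene Ptprc differed by 0.89. Liver-type endoderm genes were higher in 13 of 23, led by Afp (8.71 and 15.70), Fgb (5.97) and Apoa1 (4.55), while Hnf4a differed by 0.41 and Foxa1 by -0.88. The list median of 2.47 became 1.47 with a floor of 200. Neural genes were lower in 5 of 19 and higher in 2, with Otx2 (-3.72) at one end and Ncam1 (2.81), which heart muscle also expresses, at the other.

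Of 28 DNA replication genes 22 were lower and 0 higher, with a median of -1.60. Mcm5, a subunit of the replicative helicase, was at 15.78 and 12.76, Mcm2 differed by -2.46, Mcm10 by -2.31, and the origin licensing gene Cdc6 was at least 2.66 lower. Mitotic genes moved less, with 8 of 27 lower and a median of -0.58: Mki67 differed by -1.52 (-0.30 on another probe) and Foxm1 by -1.77, while Aurkb (0.00), Top2a (-0.21) and Cenpa (0.37) were near level. The cyclin E gene Ccne1, which drives entry into S phase, was at 14.55 and 11.52, and the D-type cyclin genes Ccnd1 (-0.02), Ccnd2 (0.55) and Ccnd3 (0.70) were under 2-fold. Of 17 cell cycle inhibitors 9 were higher and 1, Gadd45g (-1.06), lower. Among the higher were the pocket protein gene Rbl2 (2.81) and the CDK inhibitor genes Cdkn2c (2.20) and Cdkn1b (1.02).

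Ribosome biogenesis had the most uniform list: 18 of 19 measured genes were lower and the remaining one, Dcaf13, differed by -0.59, with a median of -2.02. Bop1, of the large-subunit processing complex, was at 14.75 and 10.88 and differed by -3.55 on its other probe. Rrp12 (-3.16), the pseudouridine synthase gene Dkc1 (-2.62), nucleolin, Ncl (-1.53), and the RNA polymerase I subunit gene Polr1b (-2.02) were also lower. Genes for the ribosomal proteins themselves moved less, with a median of -0.66 and 7 of 18 lower. Cholesterol synthesis genes were lower in 7 of 13, led by the mevalonate pathway genes Mvk (-2.02) and Mvd (-1.66) and squalene epoxidase, Sqle (-1.80). Lysosomal genes were higher in 13 of 22 and lower in 0, with Lgmn (2.39), Ctsb (1.99) and Lamp2 (1.95) at the top.

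Immediate early genes, which are transcribed within minutes of a stimulus, were lower in 12 of 19 with a median of -1.16. Fosb was at 14.55 and 8.74, Fos at 16.41 and 11.39, Egr1 at 17.16 and 13.64, and Egr2 at 11.73 and 7.17. Ier3 was the 1 higher gene, at 11.63 and 14.75. The sources used here do not describe how quickly the cultures were lysed on each day.

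Of 23 chromatin and DNA methylation genes 8 were lower and 3 higher, with a median of -0.52, and of 18 splicing and RNA-binding factors 7 were lower and 5 higher, with a median of -0.26. The de novo DNA methyltransferase genes went in opposite directions, Dnmt3b from 15.48 to 11.50 and Dnmt3a from 10.88 to 13.94. Tet2 (2.25) and the remodeller gene Smarca2 (1.73) were higher, and Hells (-1.93), Cbx2 (-1.78), Cbx7 (-1.75), Uhrf1 (-1.47), Dnmt1 (-1.22), Smarca4 (-1.18) and Ezh2 lower. Among splicing factors the muscleblind genes Mbnl2, Mbnl1 and Mbnl3 were higher by 2.56, 2.30 and 1.65, and Rbm24, a splicing factor of heart and skeletal muscle, was at 12.66 and 15.29. Srsf2 (16.45 and 14.13), Srsf3 (-1.82), the repressor of muscle exons Ptbp1 (16.69 and 15.01) and the epithelial factor Esrp1 (-3.06) were lower. Rbm20, which directs titin splicing, was under the intensity limit and differed by -0.71.

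The knockdown pair gave a second day 10 against day 4 comparison on other arrays, although on cells of another genotype. There, 11416 genes were kept, of which 2139 (18.7%) were higher by 2-fold or more and 2062 (18.1%) lower. Over the 11115 genes kept in both pairs the differences had a Pearson r of 0.920 and a Spearman rho of 0.913, given as a description across genes, which are not independent replicates. Genes higher in both numbered 1679, which is 76.9% of those higher in the control pair and 78.5% of those higher in the knockdown pair. Genes lower in both numbered 1601, or 72.3% and 77.6%. In opposite directions past 2-fold were 1 gene higher and 8 genes lower in the control pair. Normalization over all 5 arrays was common to the pairs. The knockdown day 10 array held 1050 deposited values at or below 0, against 0 to 38 on the other 4 arrays. After normalization 19.1% of its probes lay at the floor. Quantile normalization makes this share near equal on all 5 arrays, so it says nothing about the quality of that array.

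Contractile and calcium genes mostly had larger differences in the control pair. The Z-disc list had a median of 3.16 in the control pair and 1.83 in the knockdown pair, the thin filament list 2.25 and 1.08, and calcium handling 1.77 and 0.97. Acta1 differed by 4.94 and 1.87, Ttn by 5.10 and 2.52, and Csrp3 by 8.39 and 5.68. Tnnt2 was the reverse, 4.07 and 7.43, with day 10 intensities of 12.89 (control) and 15.94 (knockdown). Liver-type endoderm (2.47 and 0.92) and macrophage genes (3.33 and 1.98) were also larger in the control pair, and epicardial genes (1.35 and 2.77) larger in the knockdown pair. The primitive streak list (-2.03 and -1.95), ribosome biogenesis (-2.02 and -1.89), DNA replication (-1.60 and -1.48) and immediate early genes (-1.16 and -1.18) had medians within 0.2 of each other. With 1 array in each group none of these contrasts between the pairs was tested.

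**Figure D5:**
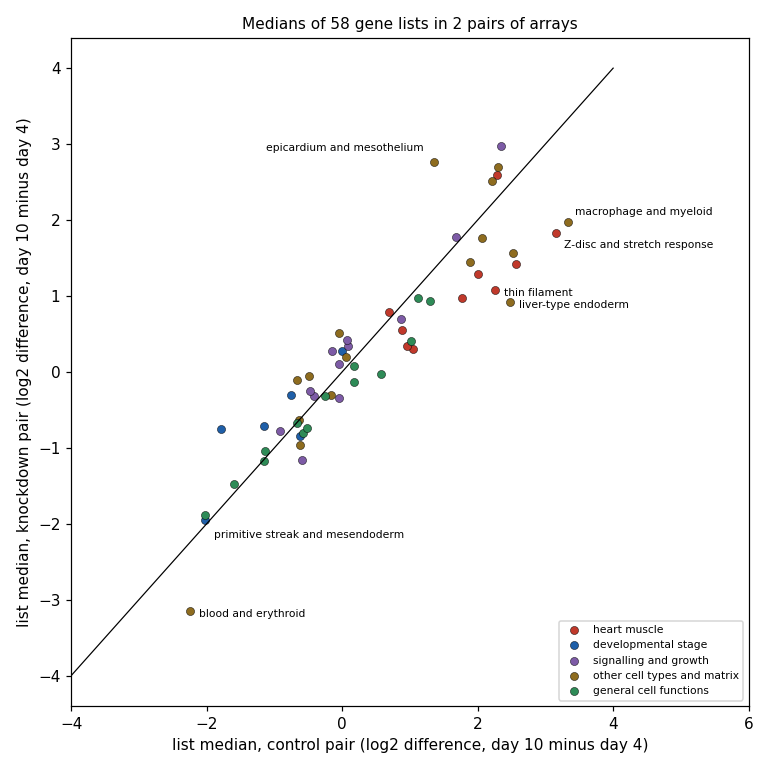
Medians of the measured genes of 58 lists as log2 differences, day 10 minus day 4, in the control pair (horizontal) and the knockdown pair (vertical), 1 array per group, with the line of equality. Points lie along the line, with the thin filament, Z-disc, macrophage and liver-type lists below it and the epicardial list above it.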

How the data were processed

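RNA of 5 mouse cultures was labelled with Cy5 and hybridised, 1 array per group. The authors deposited linear probe intensities. Agilent Feature Extraction 10.7.1.1 is named in the submitters' processing notes, and the sources used here do not say whether the intensities were normalized. Deposited medians ran from 344 to 745, and detection and saturation marks were not used.

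Intensities were quantile normalized over the 5 arrays, values under 100 were raised to 100, and log2 was taken. Of 26423 probes 20377 carried 1 gene symbol and 6046 were unnamed. Symbols were updated through RefSeq (GRCm38.p6): 18213 by current symbol, 2126 through a synonym and 38 kept as they were. For 2278 of the 17742 genes several probes existed, and the brightest by mean log2 was used. Differences are day 10 minus day 4, counted from 2-fold where the brighter array was at or above its median.

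Of 1181 genes on 58 lists 1008 were measured. List medians cover all measured genes, and counts cover those past the intensity limit, out of all measured. Named are the 20 highest and lowest differences, the 10 highest and lowest bounds, list members farthest in and against the direction of their list, markers and paired forms; some level genes and promoters were chosen after their values were seen. Comparison, members and lists were chosen with earlier results of these data known. Promoter windows came from RefSeq. Python 3.11.15, numpy 2.4.6, pandas 2.3.3 and scipy 1.17.1 were used, and the scripts were tested on simulated data. Alternatives were other normalizations, floors of 50 and 200, the mean of all probes, other filters and a 4-fold threshold.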

Additional observations from a re-analysis of the deposited data

Results flagged for a closer look

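Of the 9 genes that differed at least 2-fold in opposite directions in the control and the knockdown pair, past the intensity limit in both, 8 are given here and 1 gene model is left unnamed. Each pair holds 1 array a side, so the difference between the pairs was not tested. Fgf5, an FGF ligand, was -3.27 in the control pair and 2.20 in the knockdown pair. Gfra3, a coreceptor of the GDNF family, was -2.30 and 1.40, and Wnt2b was -1.72 in the control pair and went from 8.32 to 9.32 in the knockdown pair. Aldh1a2, the retinoic acid synthesis enzyme of epicardium and lateral mesoderm, was -1.41 and 1.65. The neuronal gene Stmn2 was -1.37 and 1.48, Zcchc12 was -1.24 and 1.18, and the Wnt antagonist gene Sfrp2 was -1.19 and 1.39. Tdo2, a tryptophan-degrading enzyme gene of liver and decidua, went the other way, at 2.11 and -1.78.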

How the results depend on the processing

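No paired analysis was possible because each group held 1 array and all arrays carry the same replicate number. Counts of genes at least 2-fold different, 2182 higher and 2214 lower, became 1165 and 5232 in the values as deposited, 1222 and 1274 with the intensity limit at the 75th percentile, and 967 and 462 at 4-fold. Counts at 16-fold, a threshold chosen after seeing the data, became 102 and 80 as deposited. Of 38 counts under alternatives 30 stayed within 1.5 times the main count, but some of those 30 could not have moved. The limit of 9.16 lies more than 2-fold above either changed floor, so the 2-fold counts stayed at 2182 and 2214. Without the intensity limit the 16-fold counts stayed at 189 and 36, because any such gene already lies above that limit. These unchanged counts say nothing about how far the results depend on the processing. The median of all genes moved to -0.72 as deposited and to -0.11 after scaling to a common 75th percentile, and stayed at 0.00 after loess centring.

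Of 348 list medians under alternatives 347 moved by less than the between-probe SD of 0.743, and liver-type endoderm became 1.47 with a floor of 200. Those 6 alternatives left out the values as deposited, which were added after seeing the data. All 58 list medians were then lower, with shifts from -1.02 to -0.47 and a median shift of -0.76. Of the 28 at 2-fold or more, 7 came under 2-fold, among them ion channels and conduction (1.04 to 0.03). That 0 of the 28 changed sign says little, because no shift was far past 2-fold. Of the list medians under 2-fold, 7 changed sign. Named genes were also checked after seeing the data, under the same 6 alternatives and as deposited: of 2254 values 254 moved by at least that SD, 194 of them as deposited, 31 with a floor of 200, 15 with a floor of 50 and 14 as the mean of all probes. Of 276 named genes at 2-fold or more 0 changed sign as deposited, and 25 came under 2-fold. The shifts ran from -1.09 to 0.00, so a gene at 2-fold or more could hardly change sign. Of the named genes under 2-fold, 19 changed sign as deposited. Trdn, under 2-fold on its brightest probe, became 1.98 as the mean of its probes. With 1 array per group, the number of arrays limits the precision, and no spread between cultures is known.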
